A study of Mus musculus with 8 samples.

Results

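Uhrf1 knockout (KO) embryoid bodies (EBs) at week 3 of differentiation were compared with EBs of the same KO line at week 2, with 1 RNA library at each time. Expression is given as RPKM, in which read counts are scaled to transcript length and library size, and a gene was counted when its RPKM was 1 or more in either library. This held for 12908 of the 20215 genes in the table, and the other 7307 were below that level at both times. Just inside the limit was the muscle creatine kinase gene Ckm, with 0.489 RPKM at week 3 and 1.0 at week 2, and just outside it was Ralyl, with 0.541 at week 3 and 0.9998 at week 2.

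The series holds 8 libraries of poly(A) RNA, 1 each from KO and wild-type (WT) ESCs and from KO and WT EBs at weeks 1, 2 and 3. All came from mouse E14 ESCs, which were kept undifferentiated with leukaemia inhibitory factor, and the groups differed in genotype and time with no added treatment. EBs were started in hanging drops and grown on as spheroids in medium with serum, with the protocol the same for KO and WT as far as the sources state it. Both lines were obtained from another laboratory, the KO cells are treated here as 1 line, no library was repeated, and the number of EBs in a library is not given in the sources used here. No p-value could therefore be computed, and the variation between cultures is unknown. Intervals given in parentheses are 95% exact binomial intervals from estimated reads, and they cover counting error only.

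Uhrf1 is the protein that reads hemimethylated DNA behind the replication fork and brings the methyltransferase Dnmt1 to it, so that DNA methylation is copied to daughter cells. EBs are aggregates of ESCs that form many tissues side by side, with an outer layer like the visceral endoderm of the yolk sac, beating cardiac muscle, blood, epithelia and neural cells. The visceral endoderm secretes the plasma proteins that the liver later makes, while the foregut gives rise to lung, stomach and liver, each with its own secreted products.

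Depth was estimated at 18600000 reads for the KO week 3 library and 19200000 for KO week 2, and at 36500000 for WT week 3 and 32100000 for WT week 2. At the KO depths 1 read on a transcript of 1 kb was worth 0.0538 RPKM at week 3 and 0.0521 at week 2. The Uhrf1 gene itself read 31.0 RPKM at week 3 and 34.6 at week 2 in KO EBs, within 1.5-fold. That level covers the whole gene and cannot tell an intact transcript from one lacking the deleted part, so it does not check the label. The epithelial surface gene Epcam (66.3 RPKM at week 3, 80.65 at week 2), the collagen gene Col1a1 (111 at week 3 and 123 at week 2) and the pluripotency factor gene Pou5f1 (104 at week 3 and 62.9 at week 2) were well above the limit in both KO libraries. In such bulk libraries fewer cells of a type and less RNA per cell cannot be told apart.

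Between the KO libraries, epithelial genes of the lung airway and alveolus, embryonic globins and neural progenitor genes were higher at week 3. Yolk sac and liver-type plasma proteins, apolipoproteins, fibrinogen, several gut genes, macrophage genes and smooth muscle genes were lower. A gene was said to have risen or fallen when its RPKM + 1 differed by 1.5-fold or more. Of the 12908 genes counted 928 rose (7.19%) and 943 fell (7.31%), and 11037 (85.5%) stayed within 1.5-fold. The change was 4-fold or more for 81 genes that rose and 84 that fell. Over all genes counted the median log2 difference of week 3 minus week 2 was -0.008, with quartiles of -0.20 and 0.18. Gene lists are described below by their counts and their median, to be read against these values.

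**Figure D1:**
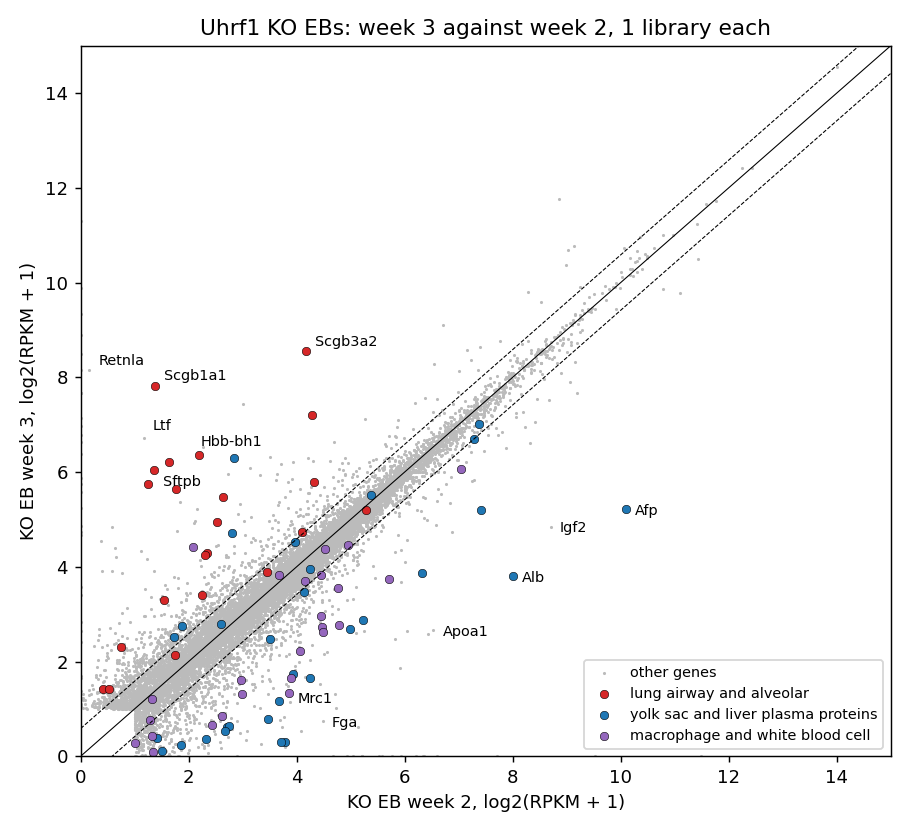
Each point is 1 gene, with its level in the KO week 3 library on the vertical axis and in the KO week 2 library on the horizontal axis, both as log2(RPKM + 1). The solid line marks equal levels and the dashed lines 1.5-fold. Red points (lung airway and alveolar genes) lie mostly above the lines, and blue points (yolk sac and liver plasma proteins) and purple points (macrophage and white blood cell genes) mostly below.

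Of the 61 lists the lung list held the highest share of genes that rose at these settings. The lists were written with earlier results of these data known, so this rank is a description only. Of its 23 genes 22 were counted, 19 rose and 0 fell, with a median log2 difference of 1.95, and the summed level of the list was 1337 RPKM at week 3 against 158.9 at week 2. Those that rose included genes of the secretory (club) cell and of both alveolar epithelial cell types. Abca3 and Lamp3, genes of the lamellar bodies that store surfactant, and Pdpn, of type 1 cells, stayed within 1.5-fold. Abca3 and Lamp3 had 13.8 and 3.40 RPKM at week 3 against 9.94 and 2.34 at week 2.

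Among the secretory genes Scgb1a1, which encodes the club cell secretory protein (chromosome 19, 9158126 to 9162448, minus strand, mm9), had 226 RPKM at week 3 against 1.59 at week 2, 142.5-fold higher (87.8 to 270.5). It had been listed at 0 in KO ESCs and at 0.266 in KO EBs at week 1, and it was listed at 0 in the WT libraries of weeks 3 and 2. Scgb3a2, a second secretoglobin of the airway, reached 376 RPKM at week 3 against 17.1 at week 2, 21.9-fold higher (19.4 to 24.8). KO EBs thus held high levels of both secretoglobins at week 3, and Scgb3a2 alone of the pair was already above 10 RPKM at week 2. Cyp2f2, a cytochrome P450 of club cells, stood at 146 RPKM at week 3 and 18.6 at week 2.

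The surfactant proteins line the alveolar surface and are made by alveolar type 2 cells, and some of them by club cells of the airway too. Sftpb (chromosome 6, 72254619 to 72262926) had 65.3 RPKM at week 3 and 1.55 at week 2, which is 42.0-fold higher (29.7 to 60.4). Sftpc, the surfactant protein most restricted to type 2 cells, read 48.9 at week 3 and 2.41 at week 2 (20.3-fold, 14.7 to 29.2), and Sftpd, a collectin that binds microbes, read 73.5 at week 3 and 2.11 at week 2 (34.8-fold, 26.4 to 46.3). The fourth, Sftpa1, rose too but remained low, at 1.68 RPKM at week 3 against 0.326 at week 2. Of the genes of the flat type 1 cell Aqp5, Ager and Hopx rose, while Pdpn, a marker of the same cell, had 35.6 RPKM at week 3 and 38.1 at week 2. Aqp5, a water channel, had 80.85 RPKM at week 3 and 3.56 at week 2, and Ager, a receptor abundant on type 1 cells, had 43.2 at week 3 and 5.19 at week 2. Hopx, a homeodomain protein of type 1 cells and of cardiac muscle, stood at 54.1 at week 3 and 19 at week 2. Nkx2-1, the transcription factor that marks lung and thyroid in the foregut (chromosome 12, 57632922 to 57637895), was 2.55-fold higher (2.17 to 3.02), at 9.63 RPKM at week 3 against 3.77 at week 2. Over the KO course Nkx2-1 read 0.0099 in ESCs, 1.57 at week 1, 3.77 at week 2 and 9.63 at week 3, so that its level was higher at each later stage.

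**Figure D2:**
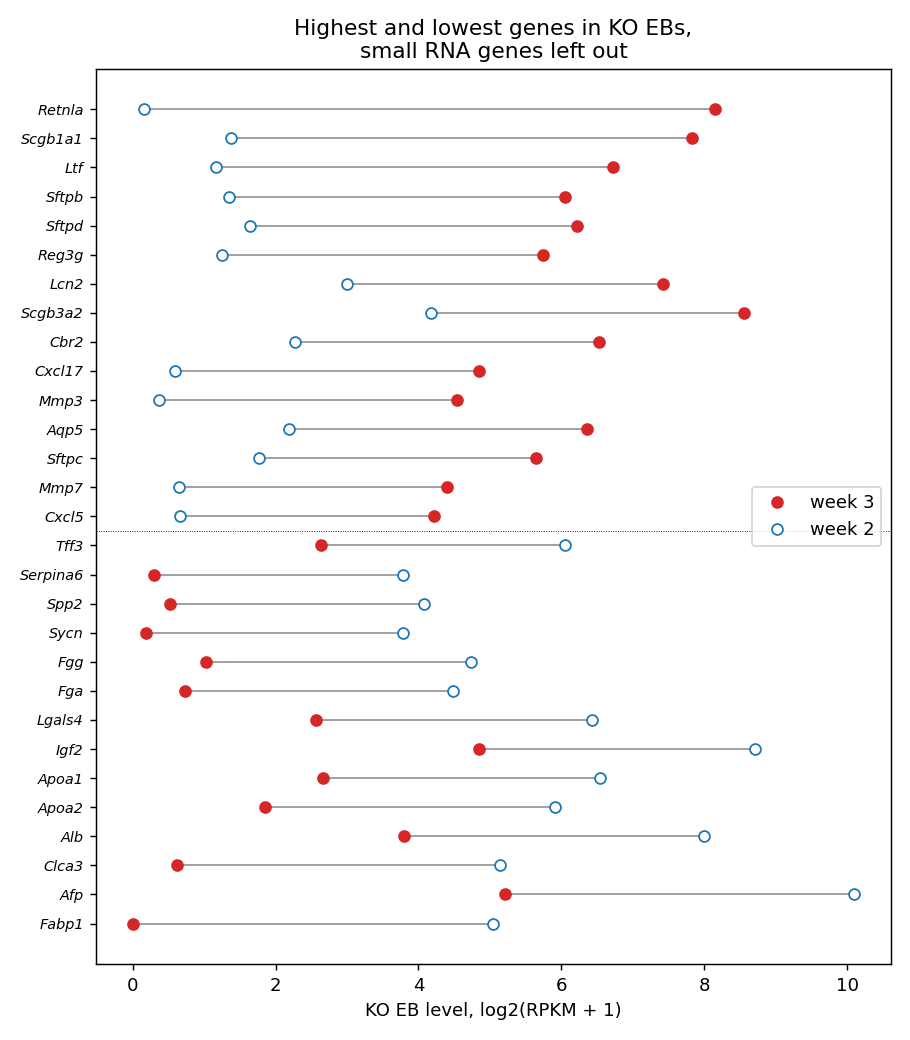
Genes from the 15 highest and 15 lowest by log2 difference among genes at 5 RPKM or more in either KO library, small RNA genes left out and 1 of the lowest not shown, with their levels in the KO library at week 3 (filled red) and week 2 (open blue) as log2(RPKM + 1). The upper block runs down from Retnla, at 284 RPKM in week 3, and liver-type, gut and imprinted genes fill the lower block down to Fabp1, listed at 0 in week 3.

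Several further genes were among the 15 highest, and they are described because of that rank. Retnla, a small secreted protein known from allergic airways and macrophages of the mouse, had 284 RPKM at week 3 against 0.118 at week 2, which corresponds to about 3159 estimated reads against 1. The ratio was 2405, with a counting interval of 585 to 128800 that is wide because of the single read. Its levels were 0 in KO ESCs and 0.178 at KO week 1, and in WT it read 0 in ESCs, 0 at week 1, 0 at week 2 and 0.124 at week 3, so 1 of the 8 libraries held nearly the whole signal. The iron-binding lactoferrin gene Ltf (105 RPKM at week 3, 1.25 at week 2) was 84.3-fold higher (65.8 to 108.5), and Lcn2, which captures bacterial siderophores (171 at week 3 and 7.02 at week 2), was 24.4-fold higher (21.1 to 28.4). In WT EBs the same pair also rose, Ltf to 21.5 RPKM at week 3 against 0.354 at week 2 and Lcn2 to 61.55 at week 3 against 0.519 at week 2. Of the antimicrobial lectins, whose near-identical copies can share reads, Reg3g stood at 52.7 in KO EBs at week 3 and 1.39 at week 2. Reg3g is a member of both the lung list and the stomach and gut list, so its rise counts in each. Cbr2, a carbonyl reductase of mouse lung, read 90.9 at week 3 and 3.81 at week 2, and the mucosal chemokine gene Cxcl17 read 27.7 at week 3 and 0.502 at week 2.

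The list of chemokines, cytokines and NF-kB targets had 27 of 32 genes counted, of which 13 rose and 4 fell, with a median of 0.40. Cxcl5, which attracts neutrophils, had 17.6 RPKM at week 3 and 0.576 at week 2, and the acute phase gene Saa3 had 73.1 at week 3 and 14.2 at week 2. Cxcl15, a chemokine of mouse lung epithelium, read 18 at week 3 and 3.94 at week 2, and Ccl6 read 20.6 at week 3 and 6.19 at week 2. In the opposite direction Cxcl10, an interferon-induced chemokine, was 3.12-fold lower (2.49 to 3.96), at 4.92 RPKM at week 3 against 15.4 at week 2. Among complement genes 15 of 22 were counted, 6 rose and 5 fell. Those that rose included Clu, an extracellular chaperone (888 RPKM at week 3, 310.1 at week 2), and C4b (4.65 at week 3 and 0.806 at week 2), while C1qa, C1qb and C1qc, the chains of C1q made by macrophages, fell to 3.68, 5.83 and 5.19 RPKM at week 3 against 15.7, 26.7 and 21.6 at week 2.

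Matrix metalloproteinases cut collagens and other matrix proteins outside the cell. Mmp3 had 22.3 RPKM at week 3 against 0.291 at week 2 (76.5-fold, 41.6 to 161), Mmp7, an epithelial member, had 20.1 at week 3 against 0.564 at week 2 (35.7-fold, 19.5 to 67.3), and Mmp10 had 14.15 at week 3 against 0.486 at week 2 (29.1-fold, 17.8 to 51.6). These 3 genes lie on chromosome 9 between 7445822 and 7699585 (mm9), and each was listed at 0 in KO EBs at week 1. Of 32 proteases and inhibitors 31 were counted, 9 rose and 6 fell, with a median of 0.17. The tissue inhibitors Timp3 (67.5 RPKM at week 3, 34.45 at week 2) and Timp2 (106.5 at week 3 and 56.6 at week 2) rose as well, whereas Mmp2 and Mmp14 stayed within 1.5-fold, at 105.6 and 102.6 RPKM at week 3 against 102.4 and 102.5 at week 2.

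The bases around the start sites of the highest and lowest genes were inspected for a TATA box, an element that helps to set where transcription starts. These genes were picked by their difference between the weeks, so their common direction follows from the choice. Promoters were 300 bases around the RefSeq start on GRCm38.p6, most of them before it, and that is a later build than the mm9 of the expression values. Those of Retnla and Mmp7 are shown as examples that rose, with each TATAAA in capitals.
Retnla, chr16:48842359-48842658, plus strand: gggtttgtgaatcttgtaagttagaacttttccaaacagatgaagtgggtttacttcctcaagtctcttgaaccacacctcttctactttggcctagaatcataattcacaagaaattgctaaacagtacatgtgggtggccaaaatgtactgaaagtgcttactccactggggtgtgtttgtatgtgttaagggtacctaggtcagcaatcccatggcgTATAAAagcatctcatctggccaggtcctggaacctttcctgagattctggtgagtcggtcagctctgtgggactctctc
Mmp7, chr9:7691840-7692139, plus strand: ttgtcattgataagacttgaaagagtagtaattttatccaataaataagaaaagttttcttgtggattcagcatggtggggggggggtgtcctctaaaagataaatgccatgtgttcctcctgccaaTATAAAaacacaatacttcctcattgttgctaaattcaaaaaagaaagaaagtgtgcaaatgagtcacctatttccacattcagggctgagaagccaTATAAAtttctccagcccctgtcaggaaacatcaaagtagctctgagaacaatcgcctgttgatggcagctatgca
The match lay 30 bases before the start of Retnla, and for Mmp7 matches lay 123 and 26 bases before it. TATAAA on the coding strand was found in 4 of the 9 matched promoters among the 15 highest genes (44.4%) and in 3 of the 11 among the 15 lowest (27.3%), against 2400 of all 27025 promoters (8.88%). With so few promoters these shares are a description, and a match is no evidence that the element is used.

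Yolk sac and liver-type plasma proteins had the most falls by number of the 61 lists at these settings, a rank that is likewise a description only. By share of genes counted, macrophage genes (18 of 25) and clotting factors (10 of 14) had slightly more. Of the 38 plasma protein genes 31 were counted, 4 rose and 21 fell, with a median of -1.96 (-1.02 with no filter on low values). The list summed to 569 RPKM at week 3 against 2219 at week 2. Afp, the albumin-like protein of fetal plasma (chromosome 5, 90919740 to 90937933, plus strand), had 36.0 RPKM at week 3 against 1096 at week 2, 30.4-fold lower (28.8 to 32.1). Its KO course read 0.176 in ESCs, 894 at week 1, 1096 at week 2 and 36.0 at week 3. Alb, albumin itself, which neighbours Afp on chromosome 5, had 12.97 RPKM at week 3 against 255 at week 2, 19.7-fold lower (17.98 to 21.6). Unlike Afp it was low at week 1 in KO EBs, at 0.420.

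The fall reached carrier proteins of the same tissues. Ttr, which carries thyroid hormone, stood at 13.5 RPKM at week 3 and 78.9 at week 2, and Rbp4, the retinol carrier that binds to it, stood at 35.55 at week 3 and 169.7 at week 2. Serpina6, the corticosteroid carrier of plasma, was 54.75-fold lower (26.2 to 136.5), at 0.234 RPKM at week 3 and 12.8 at week 2. The 4 genes that rose were Hp, Cp, Lrp2 and Fetub. Hp, haptoglobin, which binds free haemoglobin, had 77.2 RPKM at week 3 against 6.15 at week 2, and Cp, the copper protein ceruloplasmin, had 25.3 at week 3 against 6.004 at week 2. Both are acute phase proteins that epithelia outside the liver, the lung among them, also make. The 5 Serpina1 genes (alpha-1 antitrypsin) fell as well, from Serpina1e, at 0.306 at week 3 and 3.39 at week 2, to Serpina1b, at 0.732 at week 3 and 10.04 at week 2, but as near-identical copies they may share reads.

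Apolipoproteins package lipids for transport. In that list 21 of 27 genes were counted, 1 rose and 12 fell, with a median of -1.10 (-0.58 with no filter on low values). Apoa1, the main protein of high-density lipoprotein (chromosome 9, 46036663 to 46038549), had 5.31 RPKM at week 3 and 91.8 at week 2, 17.3-fold lower (14.2 to 21.4), and Apoa2 had 2.63 at week 3 and 59.0 at week 2, 22.45-fold lower (15.25 to 35.4). Fabp1, the fatty acid binding protein of liver and gut, was listed at 0 at week 3 and had 31.8 RPKM at week 2, about 338 estimated reads. A listed 0 can be a failed estimate, as is described for Rpl26 below, and that was not checked for Fabp1. Fabp1 is a member of both this list and the stomach and gut list, so its fall counts in each. Apoe, which many cell types make, stayed within 1.5-fold, at 162.5 at week 3 and 204 at week 2, and Apod was the gene that rose, at 15.1 at week 3 and 4.87 at week 2.

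Clotting factors fell or stayed within 1.5-fold. Of 24 genes 14 were counted, 0 rose and 10 fell, with a median of -1.29 (-0.65 with no filter on low values, -2.63 with a pseudocount of 0.1). The 3 fibrinogen chains, which sit together on chromosome 3 and are made as a set, fell to 0.6635 (Fga), 4.54 (Fgb) and 1.04 RPKM (Fgg) at week 3, against 21.45, 55.3 and 25.7 at week 2. The corresponding folds were 32.3 (22.6 to 46.6), 12.2 (10.2 to 14.57) and 24.7 (17.4 to 35.6). F3, Tfpi, Thbd and Pros1, which endothelium and other tissues also make, stayed within 1.5-fold. Hnf4a, a transcription factor of liver, gut and visceral endoderm, was 3.45-fold lower (3.02 to 3.97), at 3.42 RPKM at week 3 and 11.8 at week 2, and Foxa3 stood at 1.07 at week 3 and 3.95 at week 2. Foxa2 (11.4 at week 3 and 8.09 at week 2) and Gata6 (11.7 at week 3 and 16.1 at week 2), which act earlier in the endoderm, stayed within 1.5-fold, and over the 29 endoderm transcription factors 22 were counted, 4 rose and 3 fell.

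The start regions of Afp and Apoa2, from the same RefSeq table on GRCm38.p6, are shown as examples that fell, with TATAAA and the cores of sites for liver factors in capitals.
Afp, chr5:90490464-90490763, plus strand: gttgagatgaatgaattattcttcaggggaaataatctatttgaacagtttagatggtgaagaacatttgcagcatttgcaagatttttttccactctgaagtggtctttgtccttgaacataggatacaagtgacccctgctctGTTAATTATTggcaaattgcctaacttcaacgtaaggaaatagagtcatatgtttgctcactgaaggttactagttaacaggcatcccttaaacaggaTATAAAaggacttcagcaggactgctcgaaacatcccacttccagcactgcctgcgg
Apoa2, chr1:171224804-171225103, plus strand: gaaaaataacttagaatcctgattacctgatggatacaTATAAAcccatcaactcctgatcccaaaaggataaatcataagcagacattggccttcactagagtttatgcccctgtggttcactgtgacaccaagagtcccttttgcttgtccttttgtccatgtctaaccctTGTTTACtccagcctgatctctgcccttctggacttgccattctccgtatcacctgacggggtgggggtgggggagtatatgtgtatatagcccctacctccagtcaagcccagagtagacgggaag
In Afp the capitals mark GTTAATTATT, a match to the HNF1 core (GTTAAT, any base, ATT), 105 bases before the start, and TATAAA 7 bases before it. In Apoa2 they mark TATAAA 212 bases and TGTTTAC, a forkhead (Foxa) core, 77 bases before the start. Read on both strands, the HNF1 core was in 1 of the 11 matched promoters of the 15 lowest genes (9.09%), 0 of 9 of the 15 highest (0.0%) and 0.437% of all 27025, and the forkhead core in 1 of 11 (9.09%), 0 of 9 (0.0%) and 3.55%. These cores were chosen after the values were seen. The interferon element core (GAAA, any 2 bases, GAAA, both strands) was in 0 of 9 and 0 of 11 against 3.49% of all promoters, and the CArG box of muscle genes, on both strands, in 1 of 9 (11.1%) and 0 of 11 (0.0%) against 1.57%.

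Stomach and gut genes moved in both directions. Of 50 genes 35 were counted, 7 rose and 16 fell, with a median of -0.48. The intestinal lectin gene Lgals4 (chromosome 7, 29618813 to 29626722) had 4.94 RPKM at week 3 and 85.3 at week 2, 17.2-fold lower (14.35 to 20.8). Tff3, the trefoil peptide of goblet cells, had 5.21 at week 3 and 65.2 at week 2 (12.5-fold lower, 9.28 to 17.1), and Agr2, which folds mucins in the same cells, had 11.7 at week 3 and 59.98 at week 2. Gkn1 and Gkn2, gastrokines of the stomach surface, had 19.5 and 55.1 RPKM at week 3 against 60.1 and 151.8 at week 2. Clca3, another goblet cell protein that the list does not hold, was 63.6-fold lower (44.7 to 96.4), at 0.538 at week 3 and 34.2 at week 2. The members that rose included Reg3g, the mucin gene Muc1 (29.6 RPKM at week 3, 4.79 at week 2) and Cldn18, a tight junction gene of both stomach and lung (18.55 at week 3 and 4.05 at week 2). These 3 genes are shared with airway epithelium, and the first was named above. Sycn, a zymogen granule protein of the pancreas and also outside the list, had 0.139 RPKM at week 3, about 1 estimated read, and 12.8 at week 2, 92.1-fold lower (23.4 to 5280).

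Keratin genes rose in part. The keratin and surface epithelium list had 40 of 42 genes counted, of which 14 rose, 2 fell and 24 stayed within 1.5-fold, with a median of 0.09. Keratins of basal cells rose, with Krt5 at 64.6 RPKM at week 3 and 27.95 at week 2 (2.31-fold, 2.16 to 2.48) and Krt14 at 50.35 at week 3 and 18.3 at week 2 (2.76-fold, 2.505 to 3.03). The stress keratins Krt6a (54.3 at week 3 and 13.3 at week 2) and Krt17 (47.8 at week 3 and 13.7 at week 2) and the squamous surface protein gene Ly6d (74.4 at week 3 and 18.7 at week 2) moved the same way, while the broad epithelial gene Krt8 stood at 118 at week 3 and 109 at week 2 and Trp63, the basal cell transcription factor, at 5.50 at week 3 and 5.36 at week 2. Genes of multiciliated cells, which sweep mucus in the airway, had 17 of 31 counted, 12 rose and 0 fell, with a median of 0.86. Foxj1, their master transcription factor, had 11.6 RPKM at week 3 and 5.95 at week 2, Dynlrb2, a dynein light chain, had 11.3 at week 3 and 1.945 at week 2, and the axonemal gene Tekt1 had 4.63 at week 3 and 1.58 at week 2.

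**Figure D3:**
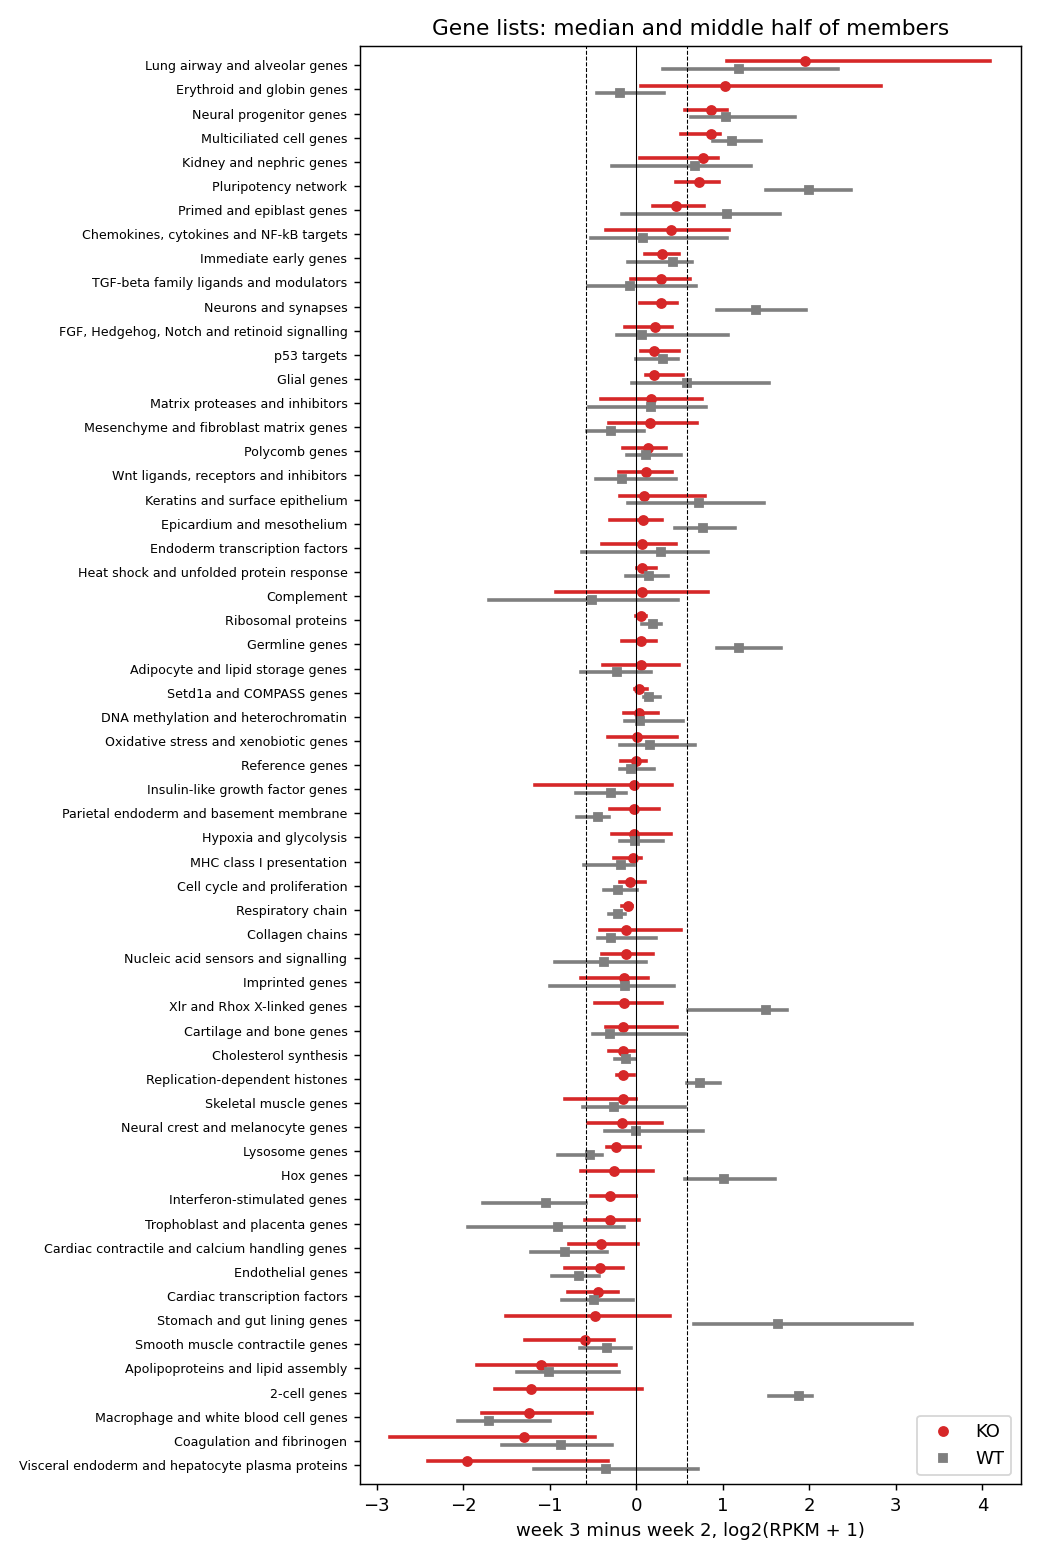
Median (marker) and interquartile range of the members (bar) of the gene lists as log2(RPKM + 1) at week 3 minus week 2, in KO (red circles) and WT EBs (grey squares), over members at 1 RPKM or more in either library of that genotype. Lists with few members counted in KO, MHC class II presentation (6) and pancreas genes (2), are not drawn. Lists run from the lung list, with a KO median of 1.95, down to the yolk sac and liver list, at -1.96, and the dashed lines mark 1.5-fold.

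Blood and vessel genes did not move as a block. Macrophage and white blood cell genes had 25 of 39 counted, 1 rose and 18 fell, with a median of -1.24 (-0.51 with no filter on low values) and a sum of 229 RPKM at week 3 against 481 at week 2. The mannose receptor gene Mrc1 had 1.54 RPKM at week 3 and 13.45 at week 2, 8.72-fold lower (7.40 to 10.4), and Csf1r, the receptor on which macrophages depend, had 2.04 at week 3 and 6.84 at week 2, 3.35-fold lower (2.84 to 3.99). The pan-leukocyte gene Ptprc was low throughout, at 0.207 at week 3 and 1.01 at week 2. Cd14 was the member that rose, at 20.5 RPKM at week 3 and 3.22 at week 2, and it is not confined to macrophages. Against these falls, 4 of the 6 counted genes of MHC class II presentation rose, among them Cd74, the invariant chain, at 15.1 at week 3 and 3.66 at week 2 (4.11-fold, 3.30 to 5.19), and H2-Aa, at 3.34 at week 3 and 1.67 at week 2. Ctss, the macrophage protease that trims Cd74, fell to 4.08 RPKM at week 3, against 18.4 at week 2.

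Embryonic globins rose. Hba-x had 61.5 RPKM at week 3 and 5.64 at week 2 (10.9-fold, 8.72 to 13.7), Hbb-bh1 had 79.2 at week 3 and 10.3 at week 2 (7.68-fold, 6.33 to 9.32) and Hbb-y had 30.3 at week 3 and 3.36 at week 2. Both weeks were far below week 1, where the KO library had 1012, 942 and 1303 RPKM in the same order of genes. Hba-a2 and Hbb-b1 rose too, to 5.28 and 2.64 RPKM at week 3 against 0.0003 and 0.784 at week 2, but globin copies share sequence and the values of single copies are uncertain. The erythroid list as a whole had 9 of 25 genes counted, 5 rose and 0 fell, and the 5 that rose were the globins. The red cell transcription factor gene Tal1 read 1.22 at week 3 and 1.14 at week 2, and the transferrin receptor gene Tfrc 89.7 at week 3 and 94.4 at week 2. Endothelial genes had 30 of 32 counted, 0 rose and 12 fell, with a median of -0.42. Lyve1 and Stab1, scavenger receptors of lymphatic and sinusoidal endothelium and of some macrophages, led the falls, at 0.897 and 0.725 RPKM at week 3 against 5.22 and 3.39 at week 2. Cdh5, the junction cadherin of all vessels, had 16.6 at week 3 and 31.9 at week 2, and Pecam1, at 29.8 at week 3 and 36.3 at week 2, stayed within 1.5-fold.

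Muscle genes fell in part. Smooth muscle contractile genes had 19 of 21 counted, 0 rose and 11 fell, with a median of -0.59. The enteric actin gene Actg2 had 5.11 RPKM at week 3 and 33.3 at week 2 (6.51-fold lower, 5.39 to 7.89), and Acta2, the vascular form, had 31.5 at week 3 and 81.3 at week 2 (2.58-fold lower, 2.40 to 2.77). Tagln, a marker of the same cells, stayed at 43.8 at week 3 and 39.3 at week 2. Cardiac contractile and calcium handling genes had 43 of 47 counted, 2 rose and 16 fell, with a median of -0.41. The atrial light chain gene Myl7 had 238 RPKM at week 3 and 537 at week 2, after 3951 at KO week 1, and Tnni1, the fetal troponin I, had 15.3 at week 3 and 41.7 at week 2, after 322 at week 1. The ventricular light chain gene Myl2 (80.85 at week 3 and 71.6 at week 2) and Myh6 (22.6 at week 3 and 32.4 at week 2) stayed within 1.5-fold between weeks 2 and 3. Among cardiac transcription factors 20 of 25 were counted, 3 rose and 7 fell. Hand2 had 5.69 RPKM at week 3 and 15.5 at week 2, Mef2c had 2.42 at week 3 and 5.69 at week 2, and Nkx2-5, at 0.297 at week 3 and 0.740 at week 2, was below the limit.

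Connective tissue genes split into a rising and a falling set. Of 49 mesenchyme and fibroblast matrix genes 47 were counted, 17 rose and 8 fell, with a median of 0.16. Elastic fibre genes were prominent among the rises. Eln, elastin itself (chromosome 5, 135179651 to 135223111), had 77.1 RPKM at week 3 and 17.6 at week 2, 4.39-fold higher (4.07 to 4.73), Fbln5, which organises the fibre, had 17.5 at week 3 and 5.61 at week 2, and Lox, the enzyme that crosslinks it, had 54.85 at week 3 and 26.2 at week 2. Mfap5, a microfibril protein, had 6.82 at week 3 and 1.27 at week 2. The falls included Emilin1, another elastic fibre protein, at 10.3 at week 3 and 22.2 at week 2, and Postn and Lum, at 109.8 and 142 RPKM at week 3 against 210.2 and 268 at week 2. Of the collagens 31 of 40 were counted, 7 rose and 5 fell, and the main fibrillar chain Col1a1 stayed within 1.5-fold. Col3a1 fell, to 274 RPKM at week 3 against 477 at week 2.

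Early neural genes rose and neuron genes mostly did not. The neural progenitor list had 34 of 44 genes counted, 25 rose and 1 fell, with a median of 0.87. Sox1, an early neuroectoderm factor, had 4.28 RPKM at week 3 and 1.46 at week 2, Pax6 had 3.22 at week 3 and 0.985 at week 2 (3.27-fold, 2.72 to 3.92), and Otx1, of the forebrain and midbrain, had 3.755 at week 3 and 0.816 at week 2. Sox2, shared by neural and pluripotent cells, had 61.7 at week 3 and 28.8 at week 2. Vim, an intermediate filament gene also expressed in mesenchyme, was the member that fell, at 251 RPKM at week 3 and 383 at week 2. Of 46 genes of neurons and synapses 29 were counted, 5 rose and 3 fell, with a median of 0.28. Stmn2 had 33.7 at week 3 and 17.15 at week 2, while the tubulin gene Tubb3 (15.9 at week 3 and 11.7 at week 2) and Dcx (1.92 at week 3 and 1.59 at week 2), both of young neurons, stayed within 1.5-fold. Gfap, the filament of astrocytes, had 14.1 RPKM at week 3 and 0.316 at week 2, 44.7-fold higher (27.4 to 78.9). Aqp4, a water channel of astrocyte endfeet that is not confined to astrocytes, had 9.315 at week 3 and 1.47 at week 2. In the glial list of 20 these were 2 of the 3 that rose among 13 counted, with 1 that fell.

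Pluripotency genes were higher in the older KO EBs. Of 34 genes 32 were counted, 20 rose and 0 fell, with a median of 0.73. Pou5f1 (chromosome 17, 35642982 to 35647721) had 104 RPKM at week 3 and 62.9 at week 2, 1.65-fold higher (1.55 to 1.76), and its course ran 769 in KO ESCs, 3.99 at week 1, 62.9 at week 2 and 104 at week 3. Sall4 had 22.1 at week 3 and 7.94 at week 2, Esrrb had 22.5 at week 3 and 8.33 at week 2, and Lin28a, which blocks let-7 maturation, had 60.8 at week 3 and 28.65 at week 2. The Zscan4 genes, expressed in 2-cell embryos and in rare ESCs, moved the other way, with Zscan4f at 0.870 RPKM at week 3 and 5.39 at week 2. Of the 2-cell list of 18 there were 8 counted, 0 rose and 5 fell, 4 of the 5 being Zscan4 copies among which reads may be shared. Germline genes, many of them silenced by DNA methylation in somatic cells, mostly stayed within 1.5-fold, with 30 of 45 counted, 1 rise and 1 fall. Dazl read 21.8 at week 3 and 19.8 at week 2, and of the Xlr copies on chromosome X Xlr3a read 36.6 at week 3 and 26.8 at week 2, Xlr3c 35.6 at week 3 and 32.4 at week 2, and Xlr4c 15.2 at week 3 and 9.93 at week 2, with reads possibly shared between copies.

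Hox genes fell in part. Of 39 genes 24 were counted, 2 rose, 9 fell and 13 stayed within 1.5-fold, with a median of -0.26. Hoxd13, the most posterior gene of its cluster, had 2.99 RPKM at week 3 and 15.6 at week 2 (5.21-fold lower, 4.34 to 6.29), Hoxa13 had 0.710 at week 3 and 3.285 at week 2, and Hoxd12 had 0.609 at week 3 and 2.87 at week 2. The anterior gene Hoxb1 was among the 2 that rose, at 1.65 RPKM at week 3 and 0.397 at week 2.

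Imprinted genes are expressed from 1 parental allele under the control of DNA methylation. Of 57 genes 46 were counted, 3 rose and 12 fell, with a median of -0.14. Igf2, a fetal growth factor (chromosome 7, 149836673 to 149852721, minus strand), had 27.9 RPKM at week 3 and 419 at week 2, 15.0-fold lower (14.4 to 15.65), after 4.55 at KO week 1. H19, the noncoding RNA next to it, had 885 at week 3 and 2209 at week 2, 2.50-fold lower (2.47 to 2.53), after 4211 at week 1. Both genes of the pair were thus lower at week 3 than at week 2. On chromosome 12 the growth-related Dlk1 had 5.25 RPKM at week 3 and 37.0 at week 2, while its noncoding neighbour Meg3 had 72.2 at week 3 and 27.8 at week 2. Cdkn1c, a cell cycle inhibitor, had 3.57 at week 3 and 22.75 at week 2, and the Igf2 receptor gene Igf2r had 6.12 at week 3 and 16.8 at week 2. Igf2 and Dlk1 are abundant in fetal liver and yolk sac, whose plasma protein genes fell in the same library (21 of the 31 counted), and the part of those cells in these values was not tested.

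Interferon-stimulated genes, which respond to viral or endogenous nucleic acids, mostly stayed within 1.5-fold. Of 52 genes 49 were counted, 1 rose and 10 fell, with a median of -0.30. Ifit3, the gene that rose, had 75.3 RPKM at week 3 and 41.8 at week 2 (1.80-fold, 1.68 to 1.92). Ifit1, from the same cluster on chromosome 19, had 51.4 at week 3 and 38.8 at week 2, and Isg15 had 84.5 at week 3 and 109.9 at week 2, each within 1.5-fold. Rsad2 (5.14 at week 3 and 14.3 at week 2) and Gbp6 (5.97 at week 3 and 15.1 at week 2) fell.

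Housekeeping lists stayed within 1.5-fold. No ribosomal protein gene (0 of 53 counted), respiratory chain gene (0 of 52), heat shock gene (0 of 28) or reference gene (0 of 18) differed by 1.5-fold, and the medians were -0.10 for the respiratory chain and 0.06 for ribosomal proteins. Gapdh read 77.3 RPKM at week 3 and 65.6 at week 2, and Actb 409 at week 3 and 482 at week 2. Rpl26 was outside the ribosomal list and had 0.0002 RPKM at week 3 and 6.42 at week 2, although every cell needs it, so a value at or near 0 in this table can be a failed estimate. In the cell cycle list 48 of 48 genes were counted, 2 rose and 2 fell, and the proliferation gene Mki67 read 20.1 at week 3 and 22.3 at week 2. Among 31 counted genes of DNA methylation and heterochromatin 2 rose and 1 fell. Dnmt1 had 31.3 RPKM at week 3 and 35.4 at week 2, the de novo enzyme gene Dnmt3a fell to 13.9 at week 3, against 23.9 at week 2, and Dnmt3b rose to 39.8 at week 3, against 26.0 at week 2. Setd1a and its COMPASS partners had 12 counted with 0 past 1.5-fold, Setd1a itself at 9.11 at week 3 and 7.81 at week 2.

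WT EBs of the same weeks were set beside these values, and they share no library with the KO comparison. In WT EBs 1707 of 12951 genes counted rose between these weeks (13.2%) and 1307 fell (10.1%). Of the 12432 genes counted in both genotypes 500 rose in both and 490 fell in both. These were 53.9% of the genes that rose in KO and 52.0% of those that fell in KO, and 29.3% and 37.5% of those that rose and fell in WT. Another 38 rose in KO and fell in WT, and 98 fell in KO and rose in WT. Across genes the log2 differences of KO and WT had a Pearson r of 0.43 and a Spearman rho of 0.56. With small RNA genes left out the Pearson r was 0.53 over 12359 genes. These are given as a description because genes are not independent replicates. With 1 library in each group the difference between the genotypes in these changes cannot be tested.

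**Figure D4:**
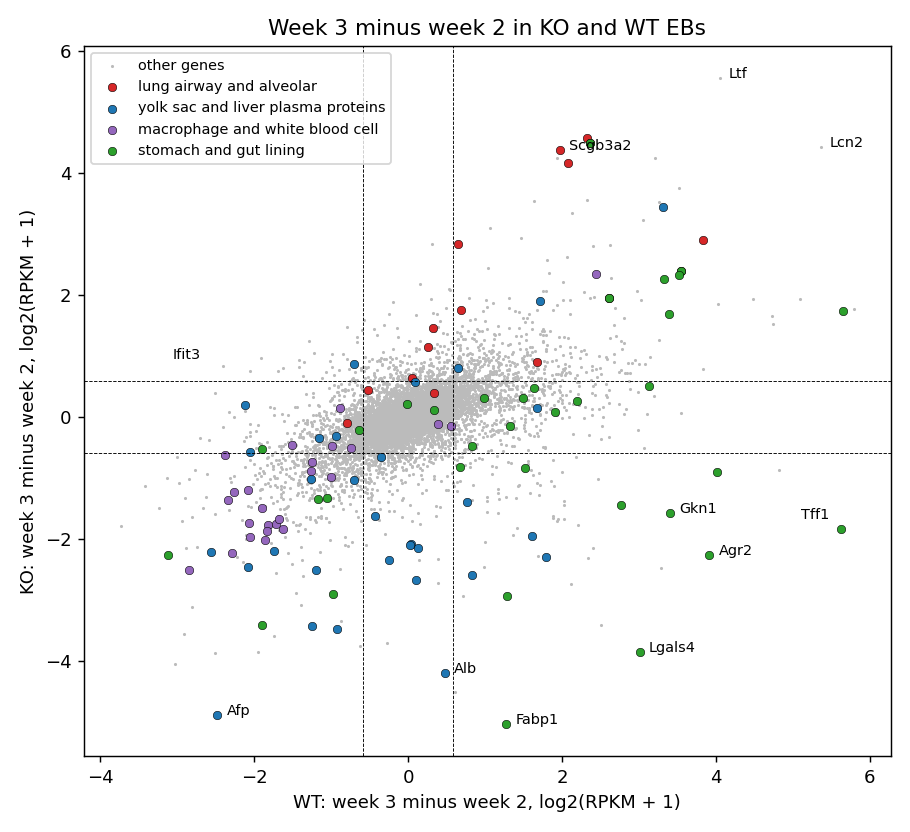
Each point is a gene counted in both genotypes, small RNA genes left out, with its log2(RPKM + 1) difference of week 3 minus week 2 in KO EBs on the vertical axis and in WT EBs on the horizontal axis, and dashed lines at 1.5-fold. Ltf and Lcn2 lie high in both, Afp low in both, and gut genes such as Lgals4, Agr2 and Tff1 (green) lie at the lower right, having fallen in KO and risen in WT.

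The lung genes stood at different levels in KO and WT EBs. In WT EBs 16 lung genes were counted, 10 rose and 1 fell, with a median of 1.18 against 1.95 in KO. Scgb3a2 stood at 376 RPKM in KO EBs at week 3 and at 7.60 in WT EBs at week 3, and Aqp5 at 80.85 in KO and 3.31 in WT. Sftpc had 48.9 in KO and 0.0814 in WT, and Sftpb 65.3 in KO and 0.720 in WT, whereas Muc1 stood at 29.6 in KO and 55.3 in WT and Cldn18 at 18.55 in KO and 15.1 in WT.

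Plasma protein genes fell in both genotypes in part. The yolk sac and liver list had a median of -1.96 in KO, with 4 rises and 21 falls, and of -0.35 in WT, with 10 rises and 16 falls among 35 counted. Afp fell in WT too, to 824 RPKM at week 3 against 4602 at week 2, and Apoa1 to 145 at week 3 against 834.5 at week 2. Alb, by contrast, stayed within 1.5-fold in WT EBs, at 269 at week 3 and 192 at week 2, and Fgg also did, at 47.25 at week 3 and 57.6 at week 2. At week 3 Afp stood at 36.0 RPKM in KO and 824 in WT, and Alb at 12.97 in KO and 269 in WT.

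Gut genes went opposite ways in part. The stomach and gut list had 7 rises and 16 falls in KO, with a median of -0.48, and 28 rises and 7 falls among 37 counted in WT, with a median of 1.63. Tff1, a trefoil peptide of the stomach, had 2.12 RPKM at week 3 and 10.2 at week 2 in KO, and 155.9 at week 3 and 2.18 at week 2 in WT. Agr2 read 11.7 at week 3 and 59.98 at week 2 in KO and 37.8 at week 3 and 1.57 at week 2 in WT, and Gkn1 read 19.5 at week 3 and 60.1 at week 2 in KO and 35.8 at week 3 and 2.46 at week 2 in WT. At week 2 all 4 of Agr2, Gkn1, Gkn2 and Lgals4 were therefore higher in the KO library than in WT, and at week 3 all 4 were lower, Gkn2 only slightly, at 55.1 in KO and 62.4 in WT. Some gut genes moved the same way in both genotypes. In WT EBs Tff3 fell too, to 33.9 RPKM at week 3 against 128.9 at week 2, and Reg3g rose too, to 13.8 at week 3 against 1.87 at week 2.

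Several lists had larger medians or more calls in WT than in KO. Pluripotency genes had a median of 0.73 in KO (20 of 32 rose) and 1.99 in WT (32 of 32), with Pou5f1 at 104 at week 3 and 62.9 at week 2 in KO and at 111 RPKM at week 3 and 14.9 at week 2 in WT. Genes of neurons had a median of 0.28 in KO and 1.38 in WT, where 32 of 38 counted passed 1.5-fold, and Dcx read 1.92 at week 3 and 1.59 at week 2 in KO against 10.1 at week 3 and 0.923 at week 2 in WT. Hox genes had 2 rises and 9 falls in KO, against 20 rises and 0 falls of 27 in WT. Interferon-stimulated genes had 10 falls in KO and 36 of 48 in WT, and Ifit3 read 75.3 RPKM at week 3 and 41.8 at week 2 in KO, and 4.01 at week 3 and 25.5 at week 2 in WT. Neural progenitor genes (25 rises in KO, 24 in WT) and macrophage genes (18 falls in KO, 27 in WT) moved in the same direction in both genotypes.

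**Figure D5:**
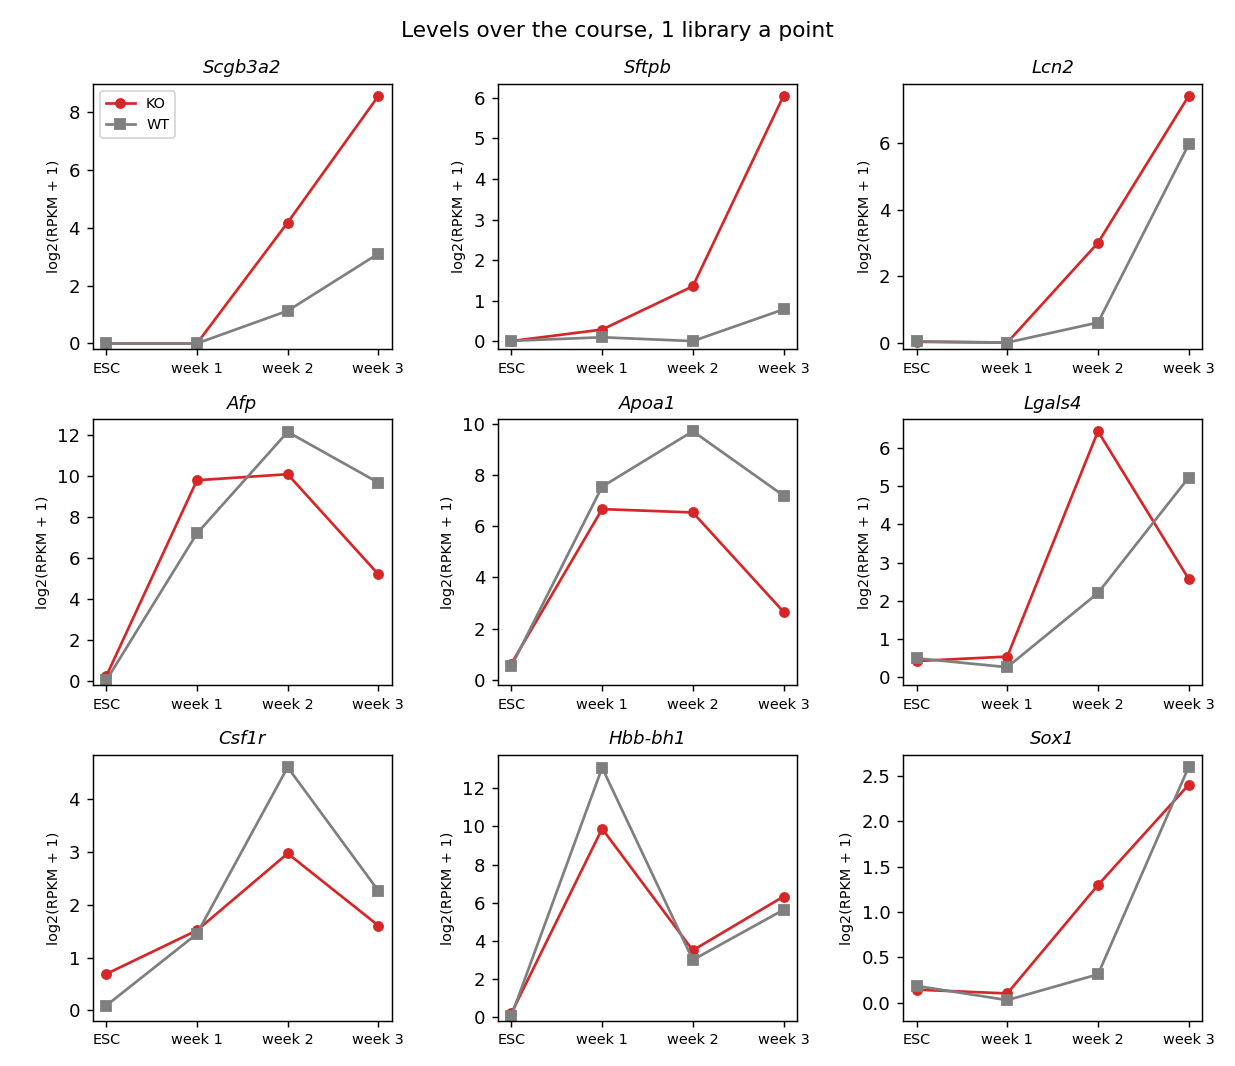
Levels as log2(RPKM + 1) of 9 genes in ESCs and in EBs at weeks 1, 2 and 3, in KO (red circles) and WT (grey squares), 1 library a point. In KO the airway and surfactant genes Scgb3a2 and Sftpb reach their highest level at week 3, Afp and Apoa1 fall at week 3, and Lgals4 peaks at week 2 in KO and at week 3 in WT.

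Small RNA genes took most of the extreme ranks. Of 96 counted, 46 rose and 24 fell, and they made up 13 of the 15 highest and 14 of the 15 lowest genes. Snord42b, a small nucleolar RNA gene, read 2525 RPKM at week 3 and was listed at 0 at week 2, and Snord58b was listed at 0 at week 3 and read 2891 at week 2. In 24 of the 46 that rose and 15 of the 24 that fell the other library was listed at 0. Exact values also repeated between these genes. Mir99b and Mir1949 both read 204.1 RPKM at week 3, and Snord89 and Mirlet7a-1 both read 35.9 at week 2. Such levels on very short transcripts may rest on few reads, so the size of these changes says little about abundance. Most small nucleolar RNAs carry no poly(A) tail, and these genes were left out of the plot of the highest and lowest genes.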

How the data were processed

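RNA was measured in 8 libraries, of which the KO and WT EB libraries of weeks 3 and 2 entered comparisons and the others gave levels. Alignment by the authors was to mm9, with TopHat 1.1.4 as aligner, Bowtie 0.12.7 beneath it and SAMtools 0.1.18, and Cufflinks 1.1.0 gave RPKM for RefSeq genes. What they deposited is on a log2 scale, RPKM plus 1 before the log, as the values themselves show, and it was turned back to RPKM here. The table holds 20215 genes (18818 coding, 1397 noncoding). Differences were taken as log2(RPKM + 1), so a fold on that scale understates changes of low genes, while the fold of a single gene in the text divides RPKM by RPKM, with nothing added. No rescaling was applied. A list stands for genes written by hand, 61 lists of 1838 symbols in all, 1771 of them in the table. The genes and lists were chosen with earlier results of these data known.

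Depth was estimated from the steps in which low RPKM values come once multiplied by transcript length, over 5676 genes of 800 to 6000 nt, with lengths and mm9 coordinates from the longest GENCODE M1 transcript. Reads per gene follow from it, and intervals are Clopper-Pearson intervals at 95% that cover counting error only. Named genes were the 15 highest and 15 lowest at 5 RPKM or more, the 5 that differed most in each list, and a set of defining genes (Nanog, one of them, was not analysed here). Small RNA genes filled most of the 15, so the ranking was repeated without them, and some further genes were named beside these after their values were seen. A few genes that this rule names are not reported here. Promoters were those of RefSeq on GRCm38.p6, the first listed for a gene, found for 9 of the 15 highest and 11 of the 15 lowest. Alternatives changed the pseudocount (0.1), the filter (none, or 5 RPKM), the scaling (3 kinds) or the threshold (2-fold), or dropped small RNAs and histones. The counts and intervals were tested on simulated data. Scripts ran in Python 3.11.15 with pandas 2.3.3, numpy 2.4.6, matplotlib 3.10.9 and scipy 1.17.1.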

Additional observations from a re-analysis of the deposited data

Results flagged for a closer look

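The genes Fabp1, Clca3, Lgals4 and H19 and the 2-cell list were picked out because they passed 1.5-fold in opposite directions in KO and WT EBs, with 1 library in each group, so the difference between the genotypes was not tested. Fabp1 had a log2 difference of -5.04 in KO, listed at 0 at week 3 against 31.8 RPKM at week 2, and of 1.28 in WT, at 40.75 at week 3 and 16.2 at week 2. The listed 0 of Fabp1 can be a failed estimate. Clca3 differed by -4.52 in KO (0.538 RPKM at week 3 and 34.2 at week 2) and by 0.60 in WT (4.34 at week 3 and 2.51 at week 2). Lgals4 differed by -3.86 in KO (4.94 RPKM at week 3 and 85.3 at week 2) and by 3.02 in WT (36.3 at week 3 and 3.62 at week 2). H19 differed by -1.32 in KO (885 RPKM at week 3 and 2209 at week 2) and by 1.27 in WT (834 at week 3 and 345 at week 2). The 2-cell genes had a median of -1.21 over the 8 counted in KO and of 1.88 over the 7 counted in WT, and 4 of the 5 that fell in KO were near-identical Zscan4 copies.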

How the results depend on the processing

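The counts of rises and falls over all genes were recomputed under every alternative, and the list medians under the changes of pseudocount, filter and scaling. Genes called in both genotypes were recounted at 2-fold only. The rises and falls within each list were not recounted. No named gene past 1.5-fold and no list median past it changed direction, but some medians within 1.5-fold did. A filter at 5 RPKM in place of 1 gave 520 rises and 546 falls in KO and 889 rises in WT. At 2-fold the counts were 334 and 398 in KO and 875 and 553 in WT, and 162 genes rose and 166 fell in both genotypes. A pseudocount of 0.1 moved the median of the chemokine list to 0.71, of the cardiac transcription factors to -0.65, of coagulation to -2.63, of 2-cell genes to -2.16 and of erythroid genes to 1.63. Coagulation then had a lower median than plasma proteins (-2.50), and with the filter at 5 RPKM also (-2.25 against -2.12). With no filter the medians were 0.39 for MHC class II, -0.51 for macrophage genes, 0.25 for erythroid genes, -0.58 for apolipoproteins, 0.079 for kidney genes, -0.23 for 2-cell genes, -1.02 for plasma proteins and -0.65 for coagulation, since members near 0 in both libraries then entered. Without the filter the signs turned for complement (-0.09), endoderm transcription factors (-0.05), insulin-like growth factor genes (0.04), neural crest genes (0.03) and skeletal muscle genes (0.006). With the filter at 5 RPKM the medians were 0.69 for chemokines, -0.68 for endothelial genes, -0.69 for stomach and gut genes, -1.25 for Hox genes, -0.80 for 2-cell genes, -2.25 for coagulation, 2.74 for erythroid genes and 1.44 for multiciliated cell genes. With that filter the signs turned for complement (-0.21), cartilage and bone (0.16), trophoblast (0.06), insulin-like growth factor genes (0.04), histones (0.09) and oxidative stress genes (-0.03). With equal RPKM totals the signs turned for DNA methylation (-0.009), oxidative stress (-0.03), reference (-0.04) and COMPASS genes (-0.005). Scaling week 3 by the median ratio gave -0.58 for smooth muscle genes. Of 349 named genes 348 kept their side of 1.5-fold with the median ratio, 349 with the upper quartile, 344 with an equal RPKM total and 340 with a pseudocount of 0.1. No paired analysis was possible because each group holds 1 library, and for the same reason no replicate could be left out. Depth limits the low genes: 1 read on a transcript of 1 kb was 0.0538 RPKM in KO week 3, so levels near that value rest on single reads.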

Other observations

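Signalling genes also differed between the KO libraries, and some of them, such as Ihh, are members of tissue lists too. Of 51 Wnt ligands, receptors and inhibitors 42 were counted, 8 rose and 3 fell, with a median of 0.11. The secreted inhibitor gene Dkk1 had 9.42 RPKM at week 3 and 1.83 at week 2 (5.15-fold, 4.08 to 6.59), Wnt7a had 4.465 at week 3 and 0.610 at week 2, and Wnt2 had 1.77 at week 3 and 4.84 at week 2. Of 40 genes of the TGF-beta family 36 were counted, 10 rose and 2 fell, with a median of 0.29. Ltbp2, an extracellular protein of elastic microfibrils, had 7.14 RPKM at week 3 and 0.711 at week 2 (10.04-fold, 8.13 to 12.6), the BMP antagonist gene Grem1 had 13.1 at week 3 and 4.86 at week 2, and Bmp5 had 6.405 at week 3 and 16.8 at week 2. Among 55 genes of FGF, Hedgehog, Notch and retinoid signalling 50 were counted, 9 rose and 5 fell. Aldh1a3, which makes retinoic acid, had 3.91 at week 3 and 0.786 at week 2, and the Hedgehog ligand gene Ihh had 0.874 at week 3 and 2.865 at week 2.

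Stress and metabolism lists were mixed. Of 31 genes in the hand-written p53 target list 29 were counted and 1 rose. This was the cell cycle inhibitor gene Cdkn2b, at 29.65 RPKM at week 3 and 11.6 at week 2, whose place among p53 targets is doubtful. The well-known targets Cdkn1a (173 at week 3 and 119 at week 2) and Mdm2 (55.1 at week 3 and 36.9 at week 2) stayed within 1.5-fold. In the oxidative stress and xenobiotic list 33 of 34 were counted, 7 rose and 6 fell. Gstm3, a glutathione transferase with close copies, had 0.786 RPKM at week 3 and 12.7 at week 2, and Gsta1 had 2.20 at week 3 and 16.7 at week 2, against 17.55 at week 3 and 0.891 at week 2 in WT EBs. Among kidney and nephric genes the water channel gene Aqp1, also expressed in lung vessels and mesothelium, had 33.5 RPKM at week 3 and 6.585 at week 2, and 10.6 at week 3 and 9.42 at week 2 in WT EBs.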
